A study of Homo sapiens with 18 samples.

Results

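The 30 genes described here carry out or control the synthesis of cholesterol and of fatty acids. They were taken by a list of names from a table that lists 32490 gene names, and all 30 were found and passed the filter on low counts in every comparison. RNA was sequenced from spheroidal aggregates of established human cell lines, U87mg as a model of glioblastoma and DAOY as a model of medulloblastoma, embedded in Matrigel in channels built for electrotaxis, the directed movement of cells in an electric field. Each line has 3 groups of 3 samples, namely aggregates taken at 0 h with no field and aggregates taken after 2 h or 8 h in a direct current field of 250 V/m, so there are 18 libraries. Each sample pooled 3 channels, and each line stands for its tumour type alone. No group spent 2 h or 8 h in a channel without the field, so field and time in the channel cannot be told apart. The study asked which transcripts change under the field in each line. The p-values below measure the spread between samples, which may be technical in part. In bulk aggregates, fewer cells of a kind and less RNA per cell cannot be told apart.

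Cells make cholesterol from acetyl-CoA through mevalonate and isoprenoids to squalene, which is closed to lanosterol and trimmed step by step to cholesterol. SREBF1 and SREBF2 encode the membrane-bound SREBP transcription factors. When sterols run low, the escort protein SCAP carries them to the Golgi, where they are cut and released to switch on the genes of the pathway, and when sterols are plentiful, INSIG1 holds SCAP back. INSIG1 is itself a target of SREBP, and so are most genes of fatty acid synthesis.

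Library totals ran from 8341976 to 15610886 estimated counts. The marker lists fitted the labelled origin of the lines only in part. VIM and CD44 were abundant in all libraries and higher in U87mg. VIM was at 4000 to 5340 TPM (transcript abundance scaled for length and library total) in U87mg and 1720 to 2970 TPM in DAOY. CD44 was at 2570 to 3550 TPM in U87mg and 885 to 1530 TPM in DAOY. GFAP reached at most 3.11 TPM, S100B 0.398 TPM and OLIG2 1.76 TPM, so these defining glial markers were near 0 in both lines. SOX2 was at 2.93 to 6.92 TPM in DAOY and at no more than 0.0858 TPM in U87mg. NES was at 5.58 to 9.25 TPM in U87mg and at most 0.715 TPM in DAOY. The summed level of these glioblastoma and glia markers was 6730 to 8360 TPM in U87mg and 2620 to 4040 TPM in DAOY. VIM and CD44 were the only abundant genes in this sum. Of the markers of medulloblastoma and cerebellar progenitors, OTX2 was at 1.15 to 2.44 TPM in DAOY and at 0 in U87mg, ZIC1 overlapped between the lines, MAP2 was at 3.75 to 11.7 TPM in U87mg and 0.524 to 4.01 TPM in DAOY, BARHL1 was at 0 in DAOY and ATOH1 has no value here. The summed level of this list was 12.8 to 19.9 TPM in DAOY and 7.15 to 22.6 TPM in U87mg, so it did not separate the lines. Of the markers of other cell types, PTPRC, CDH5 and CDH1 stayed under 1 TPM in every library and EPCAM reached 2.44 TPM. PECAM1 was at 5.46 to 12.9 TPM in DAOY and at most 2.3 TPM in U87mg, and CD68 at 247 to 602 TPM in U87mg and 10.8 to 43.9 TPM in DAOY.

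Among the 0 h samples, the members varied with GC content in most libraries, and U87mg 0 h replicate 0 and DAOY 0 h replicate 0 stood apart on the low side. In both, members with GC-rich transcripts were low against the other replicates of the group. Across the 30 members, the deviation of a library from the mean log2 CPM (counts scaled to a common library size after TMM) of its group had a Pearson r of -0.92 with transcript GC content in the U87mg library and -0.91 in the DAOY library. The 15 members with the higher GC content, 51.7% or more, lay on average 0.64 below the group mean on the log2 scale in U87mg 0 h replicate 0 (a mean deviation of -0.64), while the other 15 had a mean deviation of 0.04. In DAOY 0 h replicate 0 the mean deviations were -0.53 and 0.19. Replicate 1 of each 0 h group went the other way, with r of 0.87 in U87mg and 0.88 in DAOY. In replicate 2, r was 0.69 in U87mg and 0.21 in DAOY. The GC-rich members had a mean deviation of 0.42 in U87mg 0 h replicate 2, against 0.23 in replicate 1. In DAOY 0 h replicate 1 the deviation was as large as in replicate 0, with means of 0.56 and -0.09. Over 16436 genes, r was -0.58 in U87mg 0 h replicate 0 and -0.55 in DAOY 0 h replicate 0. These points share library and depth and are given as a description. DAOY 8 h replicate 2 was low in the members at either GC content. Its mean deviations were -0.34 for the GC-rich 15 and -0.30 for the other 15. Without it, the median log2 change of the members in DAOY at 8 h was 0.20 instead of 0.05. All genes had -0.02 and -0.01, and 0 members passed in either fit (0.503% of all genes without it, 5.85% with it). DAOY 8 h replicate 0 was high in the members at either GC content, with mean deviations of 0.39 and 0.19. Without replicate 0 the median of the members was -0.10, and 0 members passed (383 of 15751 genes did). The sign of the median thus depended on which 8 h library was left out. DAOY 8 h replicate 2 also stood apart in some lipid genes outside the 30. PLIN2 was at 122.2 CPM in it against 19.5 and 28.1 CPM in the other DAOY 8 h libraries, and HILPDA, chosen after its values were seen, at 172.6 CPM against 11.7 and 8.4 CPM.

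**Figure D1:**
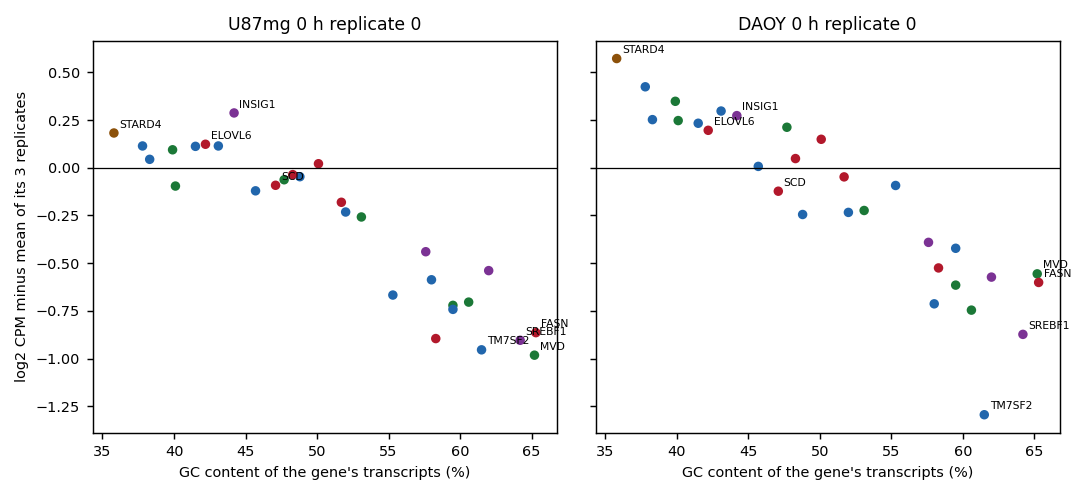
Deviation of each of the 30 members (points, coloured by role) from the mean log2 CPM of its 3 replicates, against the GC content of its transcripts in percent, in the first-numbered 0 h library of U87mg (left) and DAOY (right). Members above about 55% GC, such as MVD, FASN and SREBF1, lie below 0 in both panels, and those under 45%, such as STARD4, INSIG1 and ELOVL6, lie above 0, except HMGCS1 in U87mg.

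Per length, INSIG1 was the most abundant member in both lines at 0 h, at 717 ± 166 TPM (SD, n = 3) in U87mg and 220 ± 32.6 TPM in DAOY. In U87mg it was followed by SCD, the desaturase that makes monounsaturated fatty acids, at 602 ± 96.9 TPM, with overlapping libraries, and after a gap by MSMO1, a methylsterol monooxygenase, at 362 ± 57.0 TPM. ACLY, which supplies acetyl-CoA from citrate, and FDFT1, the squalene synthase, came next at 316 ± 25.0 and 314 ± 43.4 TPM, and neither could be set apart from MSMO1 beyond the spread. In DAOY the order differed. ACLY followed INSIG1 at 195 ± 6.14 TPM, STARD4, a carrier of sterols between membranes, came next at 183 ± 65.4 TPM, and SCD stood lower at 140 ± 31.0 TPM. Every member overlapped its neighbour in the DAOY order. TM7SF2, a sterol reductase, was lowest in both lines, at 4.64 ± 2.91 TPM in U87mg and 3.2 ± 1.86 TPM in DAOY, on 4 to 64 counts per library.

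The members took more of the RNA of U87mg than of DAOY. Together they held 0.684%, 0.706% and 0.849% of all counts in the 3 U87mg libraries at 0 h, and 0.325%, 0.370% and 0.321% in those of DAOY. Over all times the share ran from 0.618% to 0.849% in the 9 U87mg libraries and from 0.272% to 0.394% in the 9 DAOY libraries, so the lines did not overlap. A share of raw counts does not depend on the scaling between libraries. SCD and INSIG1 made up 27.2% and 16.6% of the member counts in U87mg and 14.3% and 11.6% in DAOY, as means over 9 libraries.

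**Figure D2:**
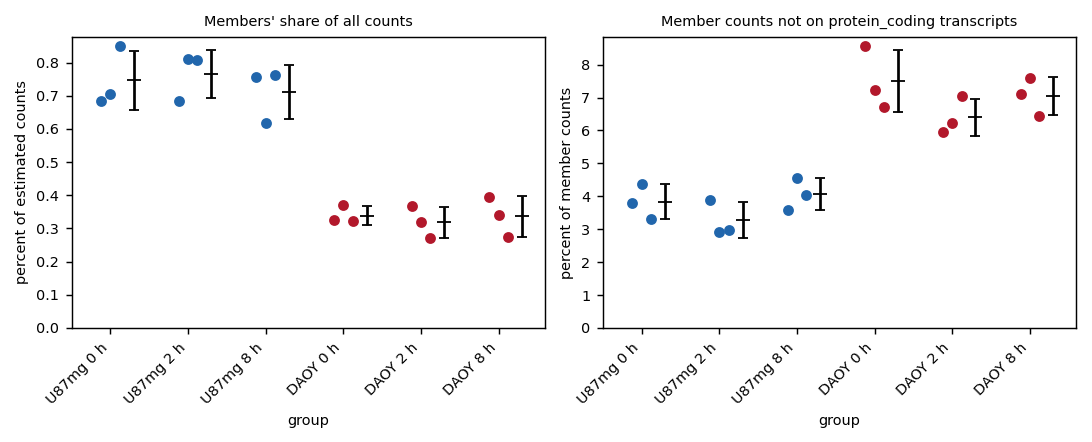
Left, the share of all estimated counts that the 30 members hold, in percent, for each library (points) with the mean and SD of each group (bars, n = 3). Right, the share of the member counts that lie on transcripts not annotated protein_coding. U87mg libraries are blue and DAOY libraries red, and the lines do not overlap in either panel.

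At 0 h, 24 of 30 members differed between the lines in edgeR's quasi-likelihood test at a Benjamini-Hochberg adjusted p below 0.05, against 60.7% of the 16482 genes tested. The direction was uneven. In DAOY, 22 members were lower, against 27.9% of all genes, and 2 were higher, against 32.8% of all genes. With an absolute log2 difference of at least 1 as well, 14 members passed, against 41.2% of all genes, 13 of them lower in DAOY (17.8% of all genes) and 1 higher (23.4%). The members had a median log2 difference of -0.92, DAOY minus U87mg, where all genes had 0.05. All 9 U87mg libraries lay above all 9 DAOY libraries for 12 members, against 17.7% of all genes, and the reverse held for 1 member, SC5D, against 22.8%. Of the 24 members, 16 passed in every alternative that kept the same threshold, and the other 8 were ACACA, ACAT2, DHCR7, FASN, FDPS, MVK, PMVK and SQLE. Without U87mg 0 h replicate 0, 22 members passed (59.0% of all genes), with a median of -1.19. Without DAOY 0 h replicate 0, 18 passed (57.4% of all genes), with a median of -0.84. Without DAOY 0 h replicate 1, 24 passed (9937 of 16798 genes did), with a median of -1.29.

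SCD had the largest difference of the 30. Its level was 1938, 1858 and 2447 CPM in the U87mg 0 h libraries and 419.1, 514.4 and 441.0 CPM in those of DAOY. The lowest U87mg library thus stood far above the highest DAOY library. The log2 difference was -2.17 ± 0.18 (SE), a level 4.50-fold higher in U87mg (edgeR's Benjamini-Hochberg adjusted p = 2e-08).

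MVD, which decarboxylates mevalonate diphosphate, came next at 12.6, 38.7 and 32.3 CPM in U87mg and 4.86, 9.87 and 7.85 CPM in DAOY. The groups did not overlap, but the U87mg library that stands apart was the nearest to DAOY. The log2 difference was -1.87 ± 0.37 (edgeR's Benjamini-Hochberg adjusted p = 0.000263), and -2.22 ± 0.31 without that library.

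MSMO1, which removes methyl groups from lanosterol-derived sterols, was at 435.8, 334.0 and 518.3 CPM in U87mg and at 136.9, 96.1 and 115.5 CPM in DAOY. All 3 U87mg values exceeded all 3 DAOY values. The difference was -1.87 ± 0.21 on the log2 scale (edgeR's Benjamini-Hochberg adjusted p = 5.69e-07).

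EBP, the isomerase that shifts a double bond of the sterol ring, was at 35.4, 63.5 and 79.4 CPM in U87mg and at 14.8, 21.5 and 12.4 CPM in DAOY. Again no library of one line reached the other. Its log2 difference was -1.86 ± 0.29 (edgeR's Benjamini-Hochberg adjusted p = 3.14e-05), or -2.13 ± 0.27 without U87mg 0 h replicate 0, and ELOVL6, which lengthens palmitate, lay just outside these 4 at -1.86 ± 0.15.

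By role, lower levels in DAOY were found in SREBP control and in all 3 arms of synthesis. Of the 4 genes of SREBP control, INSIG1 (-1.76 ± 0.20) and SCAP (-0.97 ± 0.28) were lower in DAOY, while SREBF1 (-0.27, 95% interval -1.05 to 0.51) and SREBF2 (-0.38, -0.94 to 0.18) did not pass the test. Both intervals hold 0. All 7 mevalonate and isoprenoid genes passed. HMGCS1, MVK, PMVK, MVD, IDI1 and FDPS, which run from HMG-CoA synthase to farnesyl diphosphate synthase, were lower in DAOY by log2 differences of -0.80 (FDPS) to -1.87 (MVD), and ACAT2, the thiolase that joins 2 acetyl-CoA, was higher at 0.67 ± 0.26.

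Of the 11 genes from squalene to cholesterol, 8 were lower in DAOY and 1 was higher. FDFT1 (-1.62 ± 0.19), NSDHL (-1.54 ± 0.18) and CYP51A1 (-1.43 ± 0.18), a demethylase of lanosterol, were near MSMO1 and EBP in size, while LSS, DHCR7 and SQLE, the squalene epoxidase, had -1.15, -1.11 and -0.45. SC5D, the desaturase that precedes DHCR7 in one branch, went the other way. It was at 52.2, 47.1 and 45.5 CPM in U87mg and at 162.7, 97.2 and 112.5 CPM in DAOY, with no overlap, a log2 difference of 1.37 ± 0.18 (edgeR's Benjamini-Hochberg adjusted p = 4.66e-06). TM7SF2 and HSD17B7 did not pass, with intervals of -1.71 to 0.39 and -0.75 to 0.12.

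Of the 7 genes of fatty acid synthesis and desaturation, 6 were lower in DAOY. ACLY (-0.88 ± 0.13), ACACA (-0.67 ± 0.12), the carboxylase that makes malonyl-CoA, and FASN (-0.86 ± 0.32), the fatty acid synthase, had the smaller estimates of these 6. SCD, ELOVL6 and FADS1 (-1.25 ± 0.21), which desaturate or lengthen fatty acids, had the larger ones. FADS2, the desaturase that acts before FADS1, did not pass (0.52, 95% interval -0.46 to 1.5), and neither did STARD4 (0.30, -0.16 to 0.76). FADS1 and FADS2 overlap on opposite strands of chromosome 11, and the strand setting of the counting is not given in the sources used here, so their split is uncertain. Reads of FDPS and HSD17B7 can also be shared with pseudogenes.

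**Figure D3:**
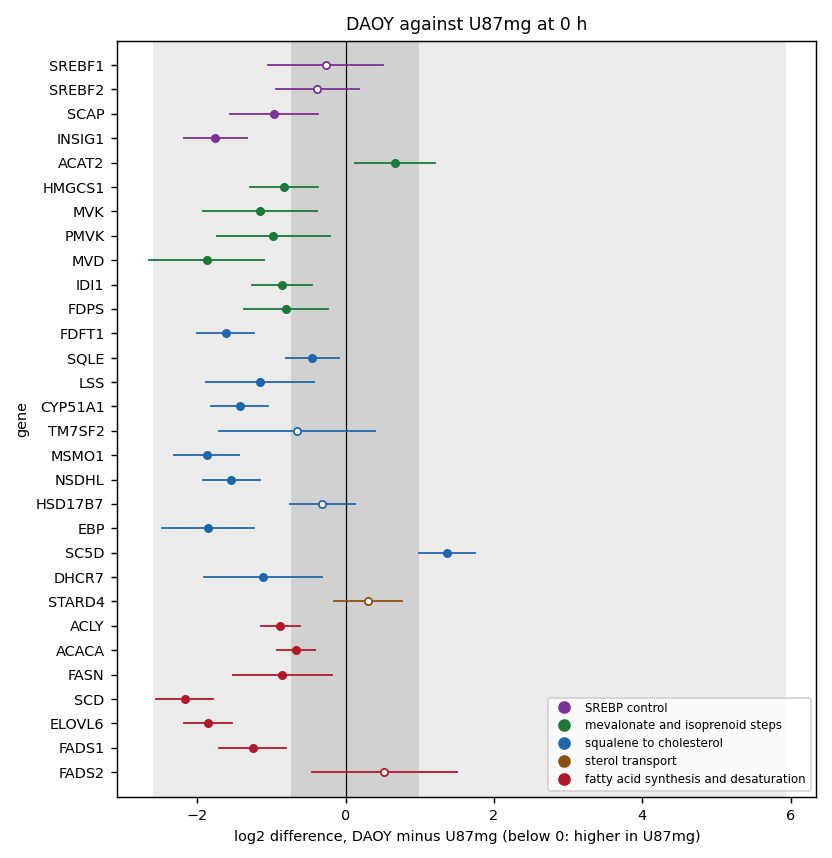
Log2 difference between DAOY and U87mg at 0 h for the 30 members (points) with 95% intervals (lines), coloured by role. Filled points passed the test at an adjusted p below 0.05, and the grey bands span the middle 50% (dark) and 90% (light) of the 16482 genes tested. Most members lie left of 0, with SC5D and ACAT2 as the filled points on the right.

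The ratios of group means at the later times are given as a description, with no test. SCD was 4.54-fold, 5.71-fold and 3.90-fold higher in U87mg at 0, 2 and 8 h. MSMO1 was 3.70-fold, 5.15-fold and 3.57-fold higher, and ELOVL6 3.64-fold, 4.47-fold and 4.64-fold. MVD was 3.70-fold, 2.17-fold and 2.97-fold higher, and EBP 3.66-fold, 2.44-fold and 3.75-fold, so both ratios were smaller at 2 h. The ratio for SC5D, U87mg over DAOY, was 0.389, 0.515 and 0.393. FASN varied more, with ratios of 1.82, 1.01 and 1.26.

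The DNA before the start of the genes with the largest differences is shown as a description, since SREBP acts through sites in such DNA. Whether these sites relate to the difference between the lines was not tested. Sequences are from RefSeq on GRCh38.p14, 5′ to 3′ on the strand of the gene, and only bases that no GENCODE 29 exon of the gene covers are printed. A window was found for 26 of 30 members in the RefSeq table. EBP is left out since its window lies within an exon, and ELOVL6, the next in size, is shown in its place. SREBF2 is added as the one member with the letters of the sterol regulatory element. Capitals mark CCAAT, which reads ATTGG on the opposite strand, the letters bound by NF-Y, a partner of SREBP, and TCACNCCAC, a form of the sterol regulatory element. The windows are SCD at chr10:100346983-100347123 (+ strand), MVD at chr16:88663162-88663341 (- strand), MSMO1 at chr4:165327419-165327622 (+ strand), ELOVL6 at chr4:110198677-110198841 (- strand), which lies before the RefSeq start but within the longer GENCODE gene, and SREBF2 at chr22:41832855-41833078 (+ strand).
SCD: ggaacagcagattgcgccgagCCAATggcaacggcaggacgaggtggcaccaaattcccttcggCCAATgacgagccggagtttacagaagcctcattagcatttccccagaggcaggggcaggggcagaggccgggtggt
MVD: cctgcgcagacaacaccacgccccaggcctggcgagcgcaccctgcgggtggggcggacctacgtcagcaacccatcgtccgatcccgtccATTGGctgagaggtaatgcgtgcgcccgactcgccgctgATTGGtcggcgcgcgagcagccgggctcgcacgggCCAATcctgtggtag
MSMO1: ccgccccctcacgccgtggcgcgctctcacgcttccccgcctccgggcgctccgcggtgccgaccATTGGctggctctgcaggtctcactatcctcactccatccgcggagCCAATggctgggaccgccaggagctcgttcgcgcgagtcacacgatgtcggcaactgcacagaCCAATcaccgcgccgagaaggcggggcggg
ELOVL6: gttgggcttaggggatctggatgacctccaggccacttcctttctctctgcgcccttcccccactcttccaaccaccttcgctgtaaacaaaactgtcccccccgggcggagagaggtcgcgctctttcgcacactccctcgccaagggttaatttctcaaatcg
SREBF2: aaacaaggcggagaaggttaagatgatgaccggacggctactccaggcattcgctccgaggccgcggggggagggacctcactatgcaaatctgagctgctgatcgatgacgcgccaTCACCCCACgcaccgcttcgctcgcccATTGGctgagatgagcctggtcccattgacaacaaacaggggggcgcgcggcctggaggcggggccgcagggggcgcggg

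These windows hold CCAAT letters 2 times for SCD and 3 times each for MVD and MSMO1, 0 times for ELOVL6 and 1 time for SREBF2, on either strand. Over the 250 bases before the start, 16 of the 26 members (61.5%) hold CCAAT, against 33.0% of 27305 promoters. The letters TCACNCCAC occur in 1 of the 26 (3.8%), SREBF2, which did not pass the test between the lines, against 0.9% of all promoters, and the E-box CACGTG in 3 (11.5%), SCAP, INSIG1 and SC5D, against 6.5%. The GC box GGGCGG is in 23 (88.5%), against 42.2%. The 27305 promoters were not limited to genes expressed in these lines, whereas all the members passed the filter on low counts. Whether the members differ in these letters from other expressed genes was not tested. No match says only that these letters are not in the window.

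Under the field, no member passed the test. Of 30 members, 0 passed an adjusted p of 0.05 in edgeR's quasi-likelihood test in U87mg at 2 h (0.0% of 14106 genes did), 0 in U87mg at 8 h (1.72%), 0 of the DAOY changes at 2 h (0.0% of 15396 genes) and 0 of those at 8 h (5.85%). At an unadjusted p below 0.05 there were 3 members in U87mg at 2 h (8.78% of all genes), 0 in U87mg at 8 h (15.9%), and for DAOY 0 at 2 h (2.75%) and 1 at 8 h (22.7%). DESeq2 and limma on log2(TPM + 1) also called 0 members in each of the 4 comparisons. The 2 h and 8 h groups of a line share their 0 h samples. The largest estimates were -0.63 in U87mg at 2 h, -0.34 in U87mg at 8 h, and for DAOY 0.44 at 2 h and -0.76 at 8 h, on the log2 scale. A change of 2-fold or more lay outside the 95% interval for 21 members in U87mg at 2 h, 29 in U87mg at 8 h, and for DAOY 23 members at 2 h and 20 at 8 h. For the other members the data allow a change of that size.

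**Figure D4:**
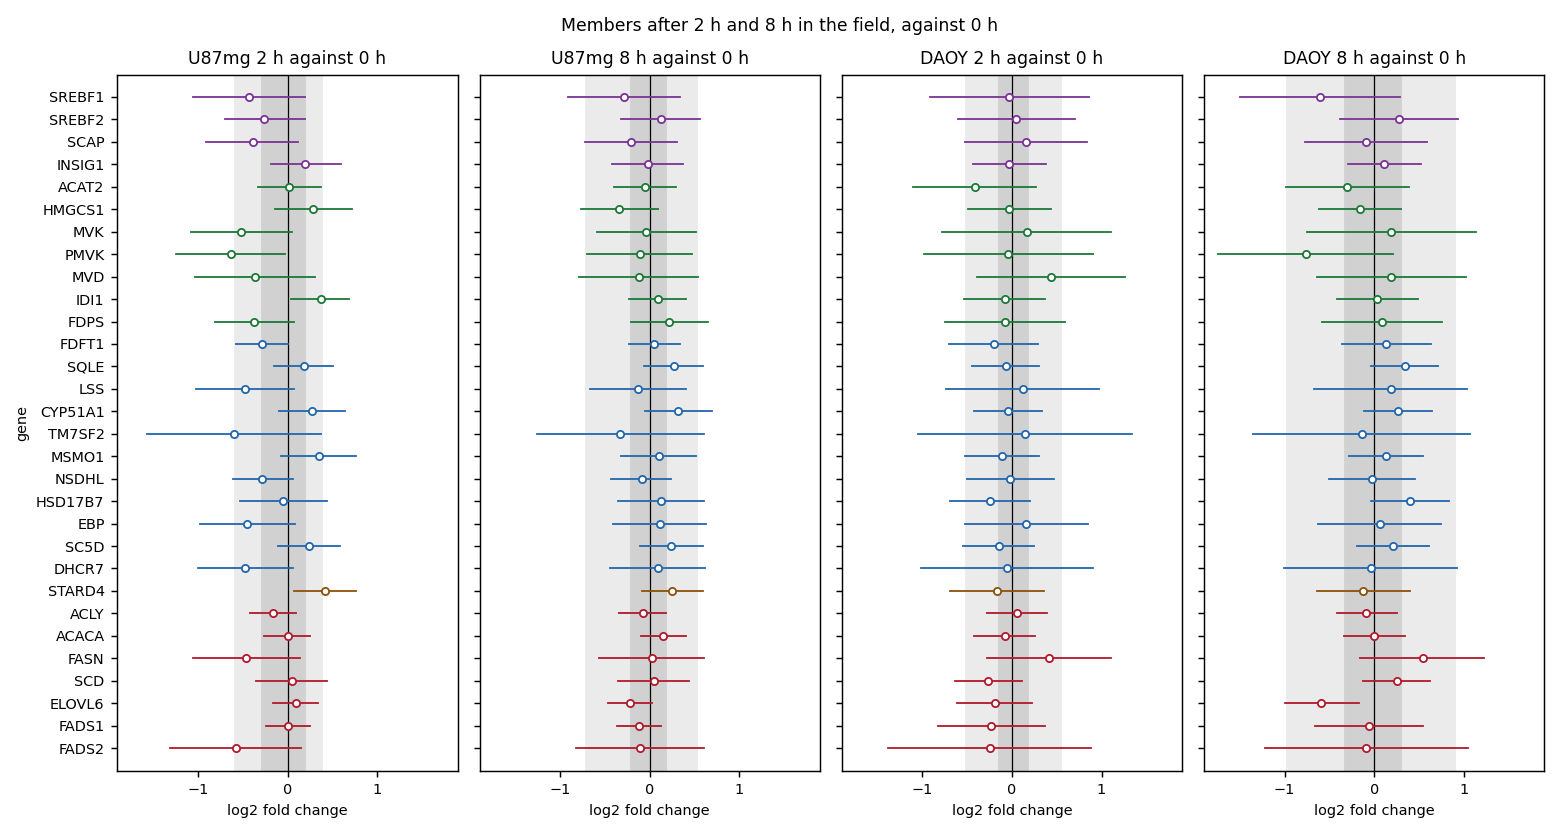
Log2 fold change of the 30 members (open points) with 95% intervals (lines) after 2 h and 8 h in the field against 0 h, in U87mg and DAOY, coloured by role as in the plot of the line difference. Grey bands span the middle 50% and 90% of all genes tested. No point is filled since none passed an adjusted p of 0.05, and ELOVL6 lies below 0 at 8 h in both lines.

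In U87mg at 2 h, the 3 members with the smallest p were STARD4, IDI1 and PMVK. STARD4 was at 205.3, 151.7 and 190.2 CPM at 0 h and 196.1, 266.7 and 262.8 CPM at 2 h. The groups overlapped in 1 library each. The log2 change was 0.42 ± 0.16 (edgeR's Benjamini-Hochberg adjusted p = 0.495).

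IDI1, the isomerase that makes the second isoprenoid building block, was at 244.0, 200.8 and 243.7 CPM at 0 h and 235.9, 301.7 and 344.2 CPM at 2 h. One 2 h library lay within the 0 h range. Its log2 change of 0.37 ± 0.15 had the same adjusted p of 0.495 by edgeR's Benjamini-Hochberg adjustment.

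PMVK, which phosphorylates mevalonate phosphate, was at 7.36, 16.1 and 15.4 CPM at 0 h and 8.55, 9.21 and 7.44 CPM at 2 h. The first-numbered 0 h library lay below the 2 h libraries, and the other 0 h libraries lay above them. The log2 change was -0.63 ± 0.28 (edgeR's Benjamini-Hochberg adjusted p = 0.495).

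This comparison turned on that library. Without U87mg 0 h replicate 0, 9 of 30 members fell at 2 h at an adjusted p below 0.05, namely SREBF1, MVK, PMVK, MVD, LSS, EBP, DHCR7, FASN and FADS2, where 8.38% of 14487 genes passed and 5.8% passed and fell. PMVK then had -0.92 ± 0.17 (edgeR's Benjamini-Hochberg adjusted p = 0.0309), FASN -0.78 ± 0.13 (0.0296) and SREBF1 -0.77 ± 0.14 (0.0303). All 9 are among the 15 members with the higher GC content, 51.7% or more. When the trend with GC content was taken out of every library, 0 members were called at 2 h, with or without that library (0.0% of all genes in both fits), and FASN had 0.01 ± 0.11 with it and -0.06 ± 0.11 without it.

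In U87mg at 8 h, the smallest p belonged to ELOVL6, CYP51A1 and SQLE. ELOVL6 was at 120.9, 102.6 and 110.2 CPM at 0 h and 84.9, 92.3 and 101.0 CPM at 8 h. The 8 h libraries all lay below the 0 h libraries. The log2 change was -0.22 ± 0.12 (edgeR's Benjamini-Hochberg adjusted p = 0.385).

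CYP51A1 was at 342.2, 261.5 and 354.5 CPM at 0 h and 382.4, 312.2 and 469.1 CPM at 8 h, with a log2 change of 0.32 ± 0.17 (edgeR's Benjamini-Hochberg adjusted p = 0.392). SQLE was at 268.5, 211.3 and 269.1 CPM at 0 h and 286.4, 249.7 and 340.4 CPM at 8 h, with 0.27 ± 0.15 (edgeR's Benjamini-Hochberg adjusted p = 0.428). For both genes the groups overlapped. Without U87mg 0 h replicate 0, 1 member, SREBF1, fell at 8 h (-0.62 ± 0.14, edgeR's Benjamini-Hochberg adjusted p = 0.0302), where 5.2% of all genes passed. It did not pass once the GC trend was removed.

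In DAOY at 2 h, SCD, ACAT2 and FASN had the smallest p. SCD was at 419.1, 514.4 and 441.0 CPM at 0 h and 413.2, 390.9 and 321.2 CPM at 2 h. All 3 values at 2 h were below those at 0 h, the first by little. The log2 change was -0.27 ± 0.17 (edgeR's Benjamini-Hochberg adjusted p = 0.999).

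ACAT2 was at 123.5, 125.0 and 78.4 CPM at 0 h and 103.0, 76.0 and 61.9 CPM at 2 h, a log2 change of -0.41 ± 0.31 (edgeR's Benjamini-Hochberg adjusted p = 0.999). FASN was at 59.8, 126.3 and 98.8 CPM at 0 h and 178.0, 109.3 and 87.6 CPM at 2 h, a change of 0.41 ± 0.31 (edgeR's Benjamini-Hochberg adjusted p = 0.999). The 0 h libraries of FASN alone spread over more than the change, and the lowest of them is the one that stands apart. Without that library 0 members passed in DAOY at 2 h (0.0% of all genes) or at 8 h (5.4%).

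In DAOY at 8 h, ELOVL6 again had the smallest p, followed by HSD17B7 and SQLE. ELOVL6 was at 34.8, 26.1 and 30.7 CPM at 0 h and 22.7, 18.6 and 18.8 CPM at 8 h. No 8 h library reached a 0 h library. The log2 change was -0.59 ± 0.19 (95% interval -1.0 to -0.17), with edgeR's Benjamini-Hochberg adjusted p = 0.0968 and an unadjusted p of 0.0105. The TPM values overlapped, at 11.9, 12.8 and 13.9 at 0 h and 12.7, 9.16 and 12.6 at 8 h, and limma on log2(TPM + 1) gave -0.16 ± 0.21 (Benjamini-Hochberg adjusted p = 0.724). The size of the drop in DAOY thus depended on the unit. Of the alternatives, ELOVL6 passed in the fit of all 18 libraries (-0.61 ± 0.15, edgeR's Benjamini-Hochberg adjusted p = 0.0171), where 11.0% of all genes did. It also passed with the GC trend removed, at -0.52 ± 0.15 in DAOY (adjusted p = 0.0385, 16.0% of all genes) and -0.29 ± 0.07 in U87mg (adjusted p = 0.0385, 7.07% of all genes) by edgeR. ELOVL6 did not pass in U87mg with the GC trend removed and U87mg 0 h replicate 0 left out (adjusted p = 0.0606, edgeR), where 5.03% of all genes did. FASN passed in DAOY with the GC trend removed (0.41 ± 0.12, edgeR's Benjamini-Hochberg adjusted p = 0.0451).

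HSD17B7, a ketosteroid reductase of the sterol pathway, was at 12.9, 12 and 13.6 CPM at 0 h in DAOY and 19.5, 16.9 and 13.7 CPM at 8 h, a log2 change of 0.40 ± 0.20 (edgeR's Benjamini-Hochberg adjusted p = 0.264). SQLE was at 220.2, 145.2 and 180.0 CPM at 0 h and 245.5, 245.8 and 186.5 CPM at 8 h, a change of 0.34 ± 0.17 (edgeR's Benjamini-Hochberg adjusted p = 0.270). The 8 h values of HSD17B7 lay above those at 0 h, in 1 library by little, and those of SQLE overlapped them.

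The difference between the lines in the change itself was tested as an interaction. Of 30 members, 0 passed at 8 h (0.0121% of 16482 genes did) and 0 at 2 h (0.0% of all genes), and 0 had an unadjusted p below 0.05 at either time (8.88% of all genes at 8 h and 6.4% at 2 h). DESeq2 and limma on log2(TPM + 1) called 0 members in both. ELOVL6 had the smallest p at 8 h, with a log2 difference of -0.35 (95% interval -0.80 to 0.10), DAOY minus U87mg.

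**Figure D5:**
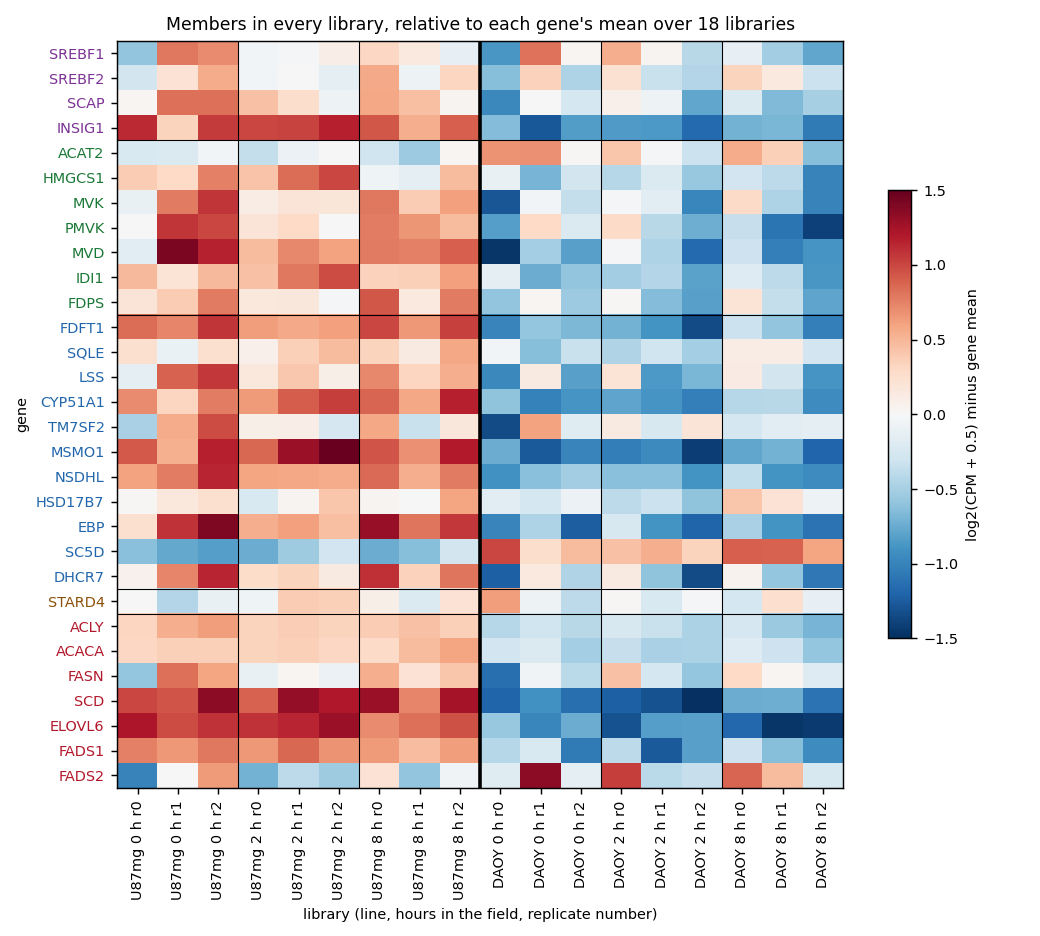
Level of the 30 members (rows, grouped and coloured by role) in the 18 libraries (columns, r0 to r2 being the replicate numbers), as log2(CPM + 0.5) minus the mean of the gene over all libraries. U87mg (left of the thick line) is mostly above the mean and DAOY below, SC5D shows the reverse, and the first 0 h column of each line is lower than the second for SREBF1, MVK, MVD, LSS, TM7SF2 and FASN.

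The table lists 305 transcripts of the members, of which 156 are annotated protein_coding, 75 retained_intron, 42 processed_transcript and 31 nonsense_mediated_decay. Transcripts not annotated protein_coding held 2.92% to 4.56% of the member counts in the U87mg libraries and 5.96% to 8.55% in the DAOY libraries. Over all other genes with a protein_coding transcript, this share was 9.01% to 9.86% in U87mg and 9.15% to 11.0% in DAOY, with overlap. With each member given the same weight, the mean share was 10.7% to 15.2% in U87mg and 11.1% to 14.9% in DAOY, so the lines then overlapped. SCD and MSMO1, both abundant, have only transcripts annotated protein_coding here, so their share of 0 was fixed by the annotation. SCD held 27.2% of the member counts in U87mg and 14.3% in DAOY, which enters the share over all member counts. In U87mg and DAOY the mean share was 57.4% and 63.8% for ACAT2, 55.7% and 53.2% for EBP, 40.4% and 38.2% for FDPS and 84.4% and 78.3% for TM7SF2. On protein_coding transcripts alone, ACAT2 no longer passed between the lines (0.39 ± 0.28, edgeR's Benjamini-Hochberg adjusted p = 0.237), and EBP did (-1.56 ± 0.32, 0.000487).

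For this share, 3 samples against 3 cannot give a p below 0.1, so the values are a description. In U87mg the mean went from 3.83% at 0 h to 3.27% at 2 h (exact permutation test, two-sided, p = 0.3) and 4.06% at 8 h (p = 0.7 by the exact permutation test). In DAOY it went from 7.50% to 6.41% at 2 h (exact permutation p = 0.2) and 7.04% at 8 h (exact permutation p = 0.6). Adjusted over the 4 comparisons, the p-values were 0.6 to 0.7 by the Benjamini-Hochberg method after exact permutation tests.

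Other genes of lipid metabolism, in 6 lists, gave 4 calls under the field. In DAOY at 8 h 3 of 52 tested genes passed (5.77%, against 5.85% of all genes), and in U87mg at 8 h 1 of 49 (2.04%, against 1.72%), so the shares were near those of all genes. CPT2, a mitochondrial carnitine palmitoyltransferase that feeds fatty acids to oxidation, fell at 8 h in both lines. In U87mg it was at 14.1, 12.3 and 14.5 CPM at 0 h and 7.2, 6.63 and 6.10 CPM at 8 h, a log2 change of -1.0 ± 0.18 (edgeR's Benjamini-Hochberg adjusted p = 0.0236). In DAOY it was at 17.1, 19.7 and 22.6 CPM at 0 h and 9.97, 7.07 and 7.75 CPM at 8 h, a change of -1.24 ± 0.23 (edgeR's Benjamini-Hochberg adjusted p = 0.0185). The groups did not overlap in either line. Leaving out 1 library at a time ended the call for 4 of 6 libraries in U87mg and 3 of 6 in DAOY, with adjusted p up to 0.139 and 0.0875 by edgeR's Benjamini-Hochberg adjustment.

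MBTPS2, the protease that makes the second cut of SREBP, was at 76.1, 48.4 and 56.4 CPM at 0 h in DAOY and 31.1, 34.4 and 37.1 CPM at 8 h. All 8 h values lay below all 0 h values, with a log2 change of -0.79 ± 0.17 (edgeR's Benjamini-Hochberg adjusted p = 0.028), and the change in U87mg was -0.08 ± 0.14. The interaction for MBTPS2 did not pass (edgeR's Benjamini-Hochberg adjusted p = 0.307). NR1H3, which encodes a liver X receptor, the sensor of oxysterols, went in DAOY from 0.79, 2.16 and 2.11 CPM at 0 h to 0.44, 0.44 and 0.50 CPM at 8 h, a log2 change of -1.85 ± 0.48 (edgeR's Benjamini-Hochberg adjusted p = 0.0484). At these low levels the 8 h libraries were below each 0 h library. Left out 1 at a time, DAOY libraries ended the call of NR1H3 for 5 of 6 and of MBTPS2 for 4 of 6.

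The lists were counted for 8 h in DAOY, where 5.85% of all genes passed in either direction. Of the further regulators of SREBP and sterol sensing 1 of 9 passed, and of further lipid synthesis 0 of 15. For LXR targets and efflux it was 1 of 7, and for uptake and sterol transport 0 of 7. Storage had 0 of 6 and fatty acid oxidation 1 of 8. All 3 genes were lower at 8 h, and of 15396 genes 539 passed and were lower. Without DAOY 8 h replicate 2, 0.503% of all genes passed. In U87mg at 8 h CPT2 alone passed, and at 2 h 0 passed in either line (0 of all genes did). The medians of the lists at 8 h in DAOY ran from -0.45 for LXR targets and efflux to 0.34 for uptake and transport, where all genes had -0.01.

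Between the lines at 0 h, 34 of the 52 tested genes of the other lists passed (65.4%), against 60.7% of all genes, so the share was near that of all genes. The calls went both ways. Of all genes, 27.9% passed and were lower in DAOY, and 32.8% passed and were higher. Of the 7 genes of uptake and sterol transport, 5 were lower in DAOY and 1 was higher, with NPC1, a lysosomal cholesterol exporter, at -2.11 ± 0.18, VLDLR at -1.87 ± 0.40 and LIPA, the lysosomal lipase, at -1.25 ± 0.14. Of the 15 genes of further lipid synthesis, 7 were lower and 3 higher, including ACSS2, which makes acetyl-CoA from acetate, at -2.30 ± 0.19 and LPIN1 at -2.13 ± 0.17. ME1, the malic enzyme that supplies NADPH, was at 174.2, 102.5 and 269.1 CPM in DAOY and at no more than 0.41 CPM in U87mg. Of 9 regulators, 4 were lower, with MBTPS2 at -0.65 ± 0.16. LXR targets and efflux genes had 3 higher and 2 lower, with MYLIP at 35.8, 42.6 and 100.3 CPM in DAOY and 1.31, 2.05 and 1.72 CPM in U87mg, ABCG1 at 2.82 to 6.64 CPM in DAOY and at most 0.20 CPM in U87mg at 0 h, and LPCAT3 at a log2 difference of 1.08 ± 0.23. Among the 6 storage genes PLIN2, a lipid droplet coat protein, was higher in DAOY and PNPLA2, a lipase of the droplets, lower (-1.32 ± 0.30), and of 8 oxidation genes 4 were higher, ACADM (1.22 ± 0.15) among them, and 2 lower, with PPARA at -1.13 ± 0.24.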

How the data were processed

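Per the labels and the methods of the study, poly-A RNA was sequenced single-end from 18 samples, and the authors trimmed the reads and quantified them with kallisto 0.43.0 on GENCODE transcripts (GRCh38.p5), followed by sleuth 0.28.1 in R 3.2.1. The authors kept 3 replicates of each group after quality control. For 145326 transcripts the deposited table gives the estimated counts of every sample beside the TPM values. Its columns of the authors' own comparisons (p, q and fold change) were not used. The counts are not whole, and the strand setting of the counting is not given in the sources used here.

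Estimated counts were summed by gene name and rounded to whole numbers. After the filterByExpr step for low counts and TMM scaling, groups were compared by edgeR's quasi-likelihood test (edgeR 4.0.16 in R 4.3.3). The 9 libraries of a line were fitted together for the field comparisons, and all 18 for the comparison of the lines and the interactions. A gene was called at a Benjamini-Hochberg adjusted p below 0.05 over all genes tested. Alternatives were DESeq2 1.42.0, limma 3.58.1 on log2(TPM + 1) and log2(TPM + 0.1), other filters, protein_coding transcripts only, the replicate number as a block, other sets of samples and leaving out each library. The interaction at 2 h and the removal of the GC trend, with and without U87mg 0 h replicate 0, were chosen after seeing the data. The GC content of transcripts came from GENCODE 29, to which 99.18% of transcripts matched. Totals of 8341976 to 15610886 counts per library set the depth.

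All 30 members are named. Values per sample are given for members called in a field comparison or, where there were none, for the 3 with the smallest p, and for the 4 with the largest called difference between the lines. Other lists are named by up to 3 called genes each. Some genes of these lists are not reported here. The members and lists were chosen with earlier results of these data known.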

Additional observations from a re-analysis of the deposited data

How the results depend on the processing

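The number of members called under the field was 0 in most alternatives. When 1 library was left out at a time, it ranged from 0 to 9 in U87mg at 2 h and from 0 to 1 in U87mg at 8 h, the highest values coming without U87mg 0 h replicate 0. With the GC trend removed it was 1 in U87mg at 8 h and 2 in DAOY at 8 h, and with all 18 libraries in one fit it was 1 in DAOY at 8 h. Between the lines at 0 h, 14 members passed with the fold threshold added, and 17 to 24 passed without 1 library. Over the 24 members called between the lines, 408 repeats gave 357 on the same side of the threshold, 51 that lost the call and 0 in the other direction.

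With each member weighted equally, the difference in the share of counts on transcripts not annotated protein_coding, later minus 0 h, turned to -0.503 percentage points in U87mg at 8 h and to 0.684 in DAOY at 8 h. Without 1 library it ran from -0.0277 to 0.505 in U87mg at 8 h, being -0.0187 without U87mg 8 h replicate 1, and from -0.844 to 0.072 in DAOY at 8 h. The cause was not tested.

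Over all genes, 243 were called in U87mg at 8 h, and 546 by DESeq2, 997 with the GC trend removed and 0 to 753 without 1 library. In DAOY at 8 h 900 were called, and 1451 by DESeq2, 2464 with the GC trend removed and 31 to 853 without 1 library. Same-numbered libraries of a line had correlations of -0.18 to 0.397 over 18 pairs, 8 of them over 0.1, and 8 of 18 libraries correlated best with their own number, so the numbers were not taken to pair the samples. The 3 same-numbered pairs of U87mg 2 h and 8 h libraries, which are not compared here, were at 0.209, 0.117 and 0.156. With the replicate block 0 members were called in each field comparison and 24 between the lines, and over all genes 145 in U87mg and 429 in DAOY at 8 h. TM7SF2, on 4 to 64 counts per library, and PMVK, on 25 to 234, were limited by depth.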
